A study of Arabidopsis thaliana with 30 samples.

Results

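The effect of the uvr8-2 mutation was examined in rosettes exposed to sunlight under the filter named UVA+B, by comparing the 2 uvr8-2 libraries with the 2 libraries of the wild type Ler under that filter. These 4 libraries are 4 of the 30 in the series. They were chosen by their labels, without reference to any measured value. Arabidopsis thaliana plants of the accession Landsberg erecta (Ler), of uvr8-2 and of the double mutant cry1cry2 were raised indoors under lamps with a film that removed UV-A, and at an age of 3 weeks they stood outdoors for 6 h, from sunrise to solar noon. The long-pass filters carried the names UVA+B, UVA, UVA350, UV0 and, last, blue0, 5 in all. The labels give no wavelengths for them. By its name the UVA+B filter passed UV-B and UV-A, and the other filters each took away more of the short wavelengths. No group received any other treatment. Each library pooled RNA of 2 field blocks with 5 rosettes per block sample, so that a library is a mean over plants and the 2 libraries of a group measure the spread between pools of 1 outdoor day. The mutant is represented by the uvr8-2 allele alone, and the labels give no lesion and no rescued line. The comparison addresses which transcripts differ between uvr8-2 and Ler rosettes under the filter that passed UV-B.

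UVR8 is the plant photoreceptor for UV-B. In UV-B it leaves its inactive dimer, binds the ubiquitin ligase subunit COP1 and, in the nucleus, allows the bZIP factors HY5 and HYH to accumulate. These induce flavonoid, sinapate and photolyase genes, which shield and repair leaf cells, and they induce RUP1 and RUP2, which return UVR8 to the dimer. UVR8 signalling is also known to restrain auxin- and gibberellin-driven elongation.

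Levels are CPM, counts relative to the size of each library after TMM scaling. They are not corrected for gene length and are compared within a gene only. Differences are log2 differences, uvr8-2 minus Ler, with their standard error (SE), and calls are genes whose adjusted p (Benjamini-Hochberg, over all genes) fell under 0.05 in an edgeR quasi-likelihood fit of all 30 libraries. The 4 libraries held 15130261 to 16635025 estimated counts each. Chloroplast genes took 0.23% to 0.525% of their counts. In every group of the series the 2 libraries differed by more than sampling noise (chi-square over its degrees of freedom between 9.3 and 41.0). UVR8 itself, at 113 and 116 CPM in Ler, was at 144 and 141 CPM in uvr8-2 (log2 difference 0.32 ± 0.09 SE, adjusted p 0.0166), so its RNA was still made and gives no check of the genotype label. That call was lost without Ler replicate 1, Ler replicate 2 or uvr8-2 replicate 1, with adjusted p of 0.076, 0.085 and 0.13. Of the 128 genes named by rule, 36 overlap another annotated gene, among them CHS, F3H, RHM1, TT19, PHR1, RAD52-2, UGT84A1, GPX7 and CSD1, and their counts are uncertain to the extent that reads are shared. The strand setting of the counting is not given in the sources used here.

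In uvr8-2 under UVA+B, 1678 of 19980 genes tested were lower than in Ler and 1356 were higher. These are 8.4% and 6.79% of the genes, and 15.2% together. Most differences were small. The median log2 difference was -0.59 among genes called lower and 0.62 among those called higher, and 298 lower and 246 higher genes reached 2-fold. The flavonol activator MYB12, the photolyase gene UVR3, the hydroxycinnamate glucosyltransferase gene UGT84A1 and the gibberellin-inactivating GA2OX8 were more than 5-fold lower, and the auxin-response gene IAA29 was more than 5-fold higher. In 3032 of the 3034 called genes both libraries of 1 genotype lay above both of the other, as they did in 51.1% of all genes tested. In bulk rosettes, fewer cells of a type and less RNA per cell cannot be told apart. The number of calls rested strongly on the pooled estimate of spread and on single libraries. Fitted to these 4 libraries alone, the test called 98 genes lower and 15 higher, and it called 662 genes without uvr8-2 replicate 1 and 867 without Ler replicate 2, in place of 3034.

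**Figure D1:**
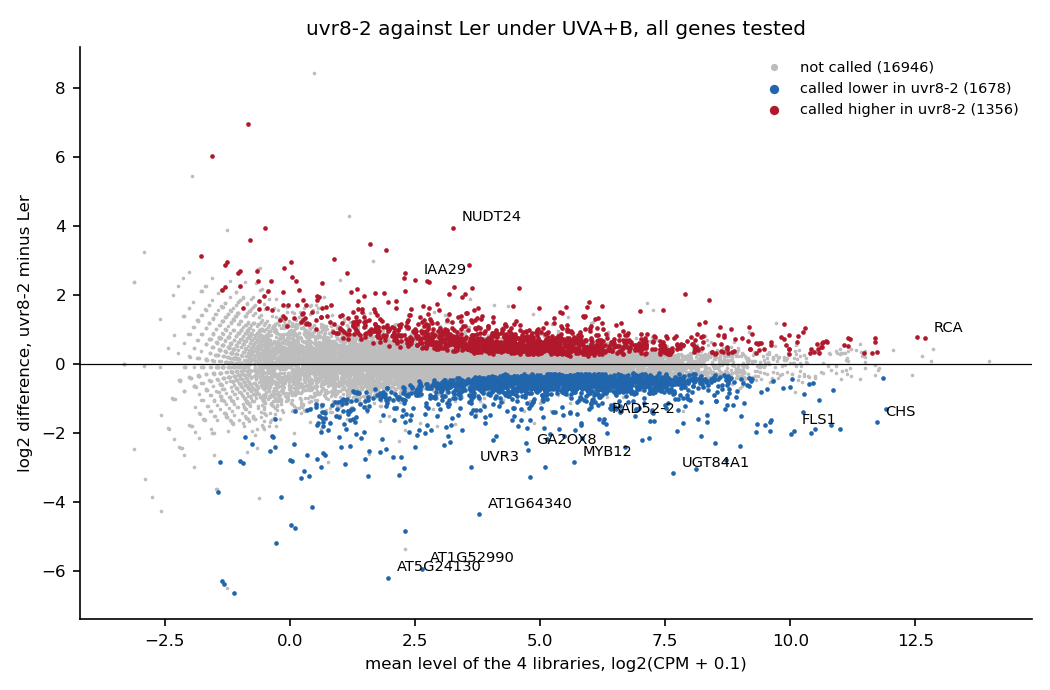
Log2 difference between uvr8-2 and Ler under UVA+B (vertical axis) against the mean level of the 4 libraries as log2(CPM + 0.1) (horizontal axis), with 1 point per gene tested. The 1678 genes called lower and the 1356 called higher lie on both sides of 0 at all levels. Labels mark some of the genes named in the text, not only the extremes.

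Within the UVR8 pathway, the negative regulators fell most. Of 19 listed signalling genes tested, 4 fell and 3 rose, and the list median was -0.24 beside 0.006 over all genes tested. RUP1, which returns UVR8 to its inactive dimer, was at 42.4 and 40.6 CPM in Ler and at 14.8 and 8.09 CPM in uvr8-2 (log2 difference -1.86 ± 0.37 SE, adjusted p 0.00343). Its partner RUP2 was at 92 and 85.8 CPM in Ler and at 45.1 and 37 CPM in uvr8-2 (log2 difference -1.11 ± 0.24 SE, adjusted p 0.0043). Both genes were low in both mutant libraries, with no overlap between genotypes. HY5, the central transcription factor of the pathway, was at 69.4 and 61.5 CPM in Ler and at 40.5 and 33.8 CPM in uvr8-2 (log2 difference -0.82 ± 0.24 SE, adjusted p 0.0256). The HY5 call was lost without any single one of the 4 libraries (adjusted p 0.08 to 0.12). Its homolog HYH had 60.4 and 52 CPM in Ler and 35.6 and 30.7 CPM in uvr8-2 and was not called (adjusted p 0.0974). BBX22, a B-box factor that acts with HY5, was the fourth gene that fell (log2 difference -0.60 ± 0.14 SE), and this call was lost without Ler replicate 2. The genes that rose besides UVR8 were BES1 and BIM1, factors of brassinosteroid signalling. BES1 was at 24.6 and 24.8 CPM in Ler and at 50.9 and 40.8 CPM in uvr8-2 (log2 difference 0.89 ± 0.13 SE, adjusted p 0.000117). COP1 was not called (log2 difference -0.22 ± 0.12 SE, adjusted p 0.225). The list counts fell to 2 lower genes without Ler replicate 2 and to 1 higher gene without uvr8-2 replicate 1.

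**Figure D2:**
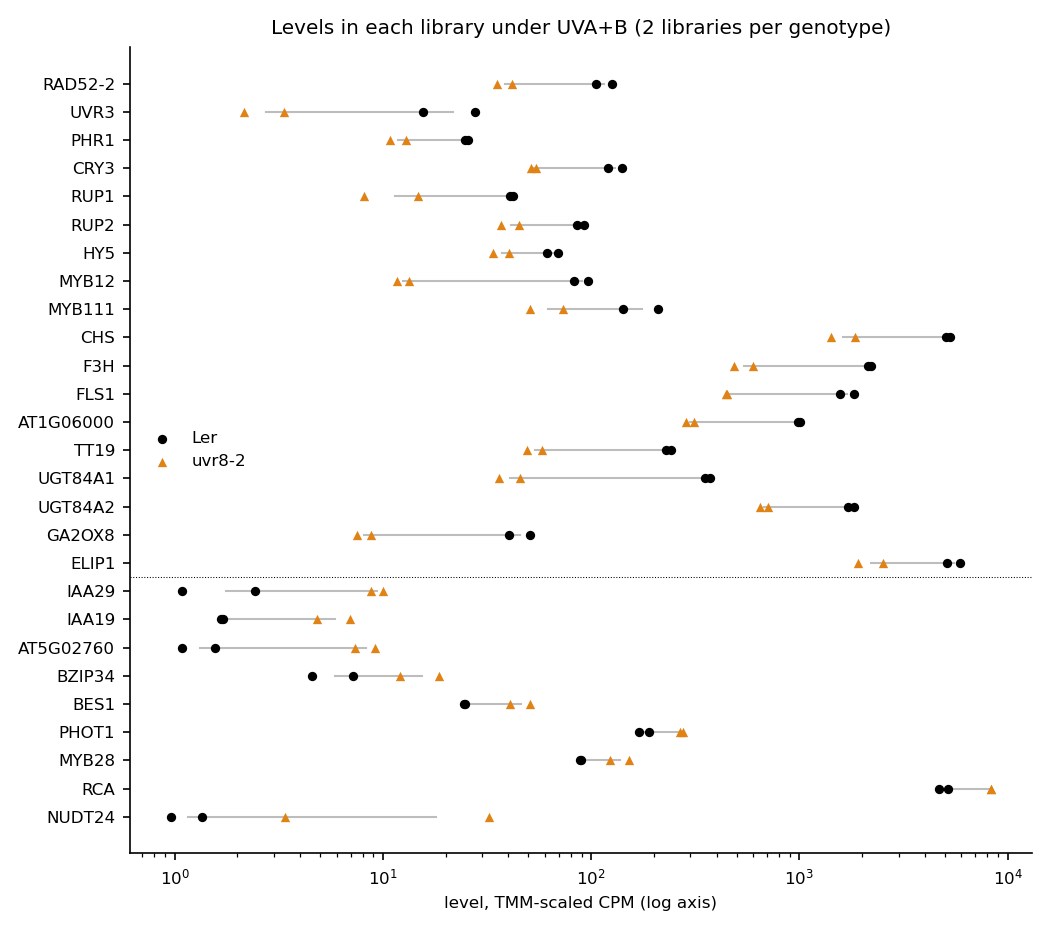
Level of 27 named genes in each of the 4 libraries under UVA+B, in TMM-scaled CPM on a log axis, with Ler as circles and uvr8-2 as triangles and a line joining the 2 means. In the genes above the dotted line both uvr8-2 libraries lie below both Ler libraries, and in those below it they lie above. NUDT24 has the widest gap between its 2 uvr8-2 libraries, 32.4 against 3.4 CPM.

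The enzymes that lead from phenylalanine to flavonols were lower in uvr8-2 almost throughout. General phenylpropanoid metabolism deaminates phenylalanine and activates the product as a CoA ester, which chalcone synthase turns into the flavonoid skeleton. Of 8 general phenylpropanoid genes, 5 fell and 1 rose (median log2 difference -1.61). PAL1, a phenylalanine ammonia-lyase that opens the pathway, was at 2255 and 2275 CPM in Ler and at 640 and 585 CPM in uvr8-2 (log2 difference -1.89 ± 0.27 SE, adjusted p 0.000147). C4H, the next enzyme, was at 1107 and 1132 CPM in Ler and at 352 and 313 CPM in uvr8-2, 3.37-fold lower (adjusted p 2.45e-05). Of the CoA ligase isoforms, 4CL3, known for flavonoid synthesis, fell (log2 difference -2.09 ± 0.25 SE). 4CL1 and 4CL2, known for lignin precursors, had log2 differences of -0.37 ± 0.19 SE and 0.11 ± 0.21 SE and were not called, and the difference between isoforms was not tested. PAL3 rose slightly (log2 difference 0.56 ± 0.17 SE), but not without Ler replicate 1 or either uvr8-2 library, and the PAL4 call was lost without 3 of the 4 libraries.

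All members of the flavonol route from CHS to FLS1 fell. Of 9 flavonol enzyme genes tested, 7 fell and none rose (median log2 difference -1.67). CHS, chalcone synthase, was at 5081 and 5297 CPM in Ler and at 1840 and 1413 CPM in uvr8-2, 3.19-fold lower (log2 difference -1.67 ± 0.29 SE, adjusted p 0.00088). F3H, flavanone 3-hydroxylase, was at 2143 and 2198 CPM in Ler and at 597 and 484 CPM in uvr8-2 (log2 difference -2.01 ± 0.36 SE, adjusted p 0.00152). FLS1, flavonol synthase, was at 1572 and 1828 CPM in Ler and at 445 and 449 CPM in uvr8-2 (log2 difference -1.93 ± 0.36 SE, adjusted p 0.002). In all 3 genes the mutant level was still above 400 CPM, so the transcripts were reduced and not absent. F3'H, which adds the hydroxyl group that makes quercetin, had the largest fall of the list (log2 difference -2.27 ± 0.30 SE), and OMT1, a methyltransferase that also serves lignin, the smallest (log2 difference -0.99 ± 0.15 SE). The other members that were tested, FLS2 and FLS3, were near or under 1 CPM and were not called. All 7 calls held without each of the 4 libraries, and the count was 6 when these 4 libraries were fitted alone.

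Flavonol glycosylation genes followed the enzymes, with 7 of 8 lower and none higher (median log2 difference -1.61). RHM1, which makes UDP-rhamnose, was at 3088 and 3286 CPM in Ler and at 994 and 752 CPM in uvr8-2, 3.65-fold lower (adjusted p 9.23e-06). AT1G06000, annotated as a UDP-glycosyltransferase, was at 1010 and 982 CPM in Ler and at 310 and 287 CPM in uvr8-2 (log2 difference -1.74 ± 0.22 SE). The largest difference of the list was that of the glycosyltransferase gene AT2G22590, at 44.7 and 75.8 CPM in Ler and 4.31 and 11 CPM in uvr8-2 (log2 difference -2.97 ± 0.39 SE, and -3.80 without uvr8-2 replicate 2). UGT73C6 was the member not called. BGLU6, a glucosidase-like enzyme that moves glucose onto flavonols, lost its call without Ler replicate 1 or uvr8-2 replicate 1.

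**Figure D3:**
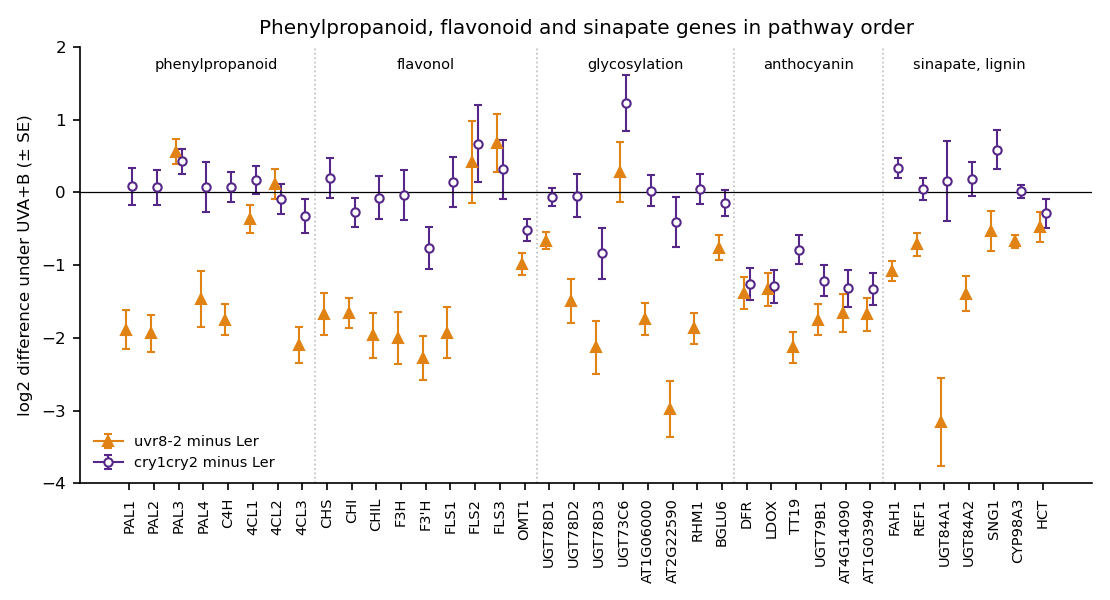
Log2 difference from Ler under UVA+B with its SE for every tested member of 5 lists in pathway order, for uvr8-2 (triangles) and cry1cry2 (open circles). Both sets of differences use the same 2 Ler libraries. The uvr8-2 values lie under -1 for most phenylpropanoid, flavonol and glycosylation genes while most cry1cry2 values lie near 0, and in the anthocyanin block both lie below 0.

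Anthocyanin genes, which branch off after F3H, were lower in uvr8-2 and were the flavonoid block that was also lower in cry1cry2. All 6 late anthocyanin genes tested fell in uvr8-2 (median log2 difference -1.67), and 5 of them fell in cry1cry2 (median -1.27), a comparison in which 172 genes, 0.861% of those tested, were called. Both mutants were compared with the same 2 Ler libraries. DFR, dihydroflavonol reductase, was at 201 and 237 CPM in Ler, at 95.1 and 72.5 CPM in uvr8-2 and at 92.2 and 91.6 CPM in cry1cry2. LDOX, the next enzyme, was at 202 and 230 CPM in Ler, at 93.2 and 78.3 CPM in uvr8-2 and at 87 and 89.7 CPM in cry1cry2. For both genes the libraries of the 2 mutants overlapped, and all of them lay below both Ler libraries. The direct test of uvr8-2 against cry1cry2 called 4905 genes (24.5%), and among late anthocyanin genes it called TT19 alone. TT19, a glutathione S-transferase that carries anthocyanin to the vacuole, was at 228 and 241 CPM in Ler, 58.2 and 49 CPM in uvr8-2 and 148 and 124 CPM in cry1cry2 (uvr8-2 minus cry1cry2, log2 difference -1.34 ± 0.21 SE, adjusted p 0.00014). For DFR that difference was -0.13 ± 0.22 SE. In the flavonol enzyme list the same test placed 7 of 9 genes lower in uvr8-2 than in cry1cry2, with CHS at -1.87 ± 0.29 SE (adjusted p 0.00015), and cry1cry2 minus Ler called none of the 9.

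Regulators of these enzymes were lower in part. Of 18 flavonoid regulators tested, 10 fell and none rose (median log2 difference -0.90). MYB12, a MYB activator of flavonol genes, was at 83 and 97.1 CPM in Ler and at 13.4 and 11.7 CPM in uvr8-2, 7.19-fold lower (log2 difference -2.85 ± 0.37 SE, adjusted p 9.64e-05), and at 94.1 and 90 CPM in cry1cry2. The related activators MYB11 (log2 difference -1.76 ± 0.34 SE) and MYB111 (-1.51 ± 0.40 SE) also fell, MYB111 not without Ler replicate 2 or uvr8-2 replicate 1. TT8, a bHLH factor for anthocyanin genes, was at 17.3 and 18 CPM in Ler, at 8.04 and 5.26 CPM in uvr8-2 and at 6.69 and 5.88 CPM in cry1cry2. It was thus low in both mutants, like the late anthocyanin genes. The repressors MYB4 and MYB7 fell as well (log2 difference -0.69 ± 0.19 SE and -0.77 ± 0.21 SE), though neither call held without Ler replicate 2 or uvr8-2 replicate 1. The number of regulators called was 4 without Ler replicate 2 and 5 without uvr8-2 replicate 1. PAP1 and MYBL2, an anthocyanin activator and a repressor, were not called.

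The promoters of lower genes are shown because HY5 binds DNA elements with an ACGT core, above all the G-box CACGTG, and the calls can be set against how common these letters are. Each sequence runs from 250 bases before to 50 bases after the annotated start, 5′ to 3′ on the gene's strand, from the RefSeq assembly TAIR10.1 of the accession Columbia, whereas the plants were Ler. Capitals mark the G-box CACGTG, the related hexamer CACGTC on either strand and any other ACGT. They are CHS at chr5:4488226-4488525 (+ strand), F3H at chr3:19024942-19025241 (+), MYB12 at chr2:19476076-19476375 (+), DFR at chr5:17165983-17166282 (-) and RAD52-2, whose genotype difference was the best supported of the listed genes, at chr5:19385820-19386119 (-).
CHS: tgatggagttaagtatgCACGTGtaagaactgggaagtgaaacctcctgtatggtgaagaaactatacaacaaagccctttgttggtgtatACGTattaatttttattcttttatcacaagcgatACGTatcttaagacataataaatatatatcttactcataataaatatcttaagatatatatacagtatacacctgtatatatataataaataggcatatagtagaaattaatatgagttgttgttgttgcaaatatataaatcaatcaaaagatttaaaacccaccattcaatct
F3H: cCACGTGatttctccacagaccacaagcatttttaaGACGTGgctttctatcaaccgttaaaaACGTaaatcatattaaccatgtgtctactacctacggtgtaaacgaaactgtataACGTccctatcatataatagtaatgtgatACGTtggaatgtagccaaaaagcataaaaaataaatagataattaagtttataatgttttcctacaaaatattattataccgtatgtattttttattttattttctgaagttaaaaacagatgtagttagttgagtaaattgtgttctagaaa
MYB12: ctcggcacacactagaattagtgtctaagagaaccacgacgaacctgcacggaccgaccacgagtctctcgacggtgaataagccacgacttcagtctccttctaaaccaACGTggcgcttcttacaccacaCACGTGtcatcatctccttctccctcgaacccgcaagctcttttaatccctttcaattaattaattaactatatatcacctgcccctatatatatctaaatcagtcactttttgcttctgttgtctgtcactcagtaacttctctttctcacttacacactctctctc
DFR: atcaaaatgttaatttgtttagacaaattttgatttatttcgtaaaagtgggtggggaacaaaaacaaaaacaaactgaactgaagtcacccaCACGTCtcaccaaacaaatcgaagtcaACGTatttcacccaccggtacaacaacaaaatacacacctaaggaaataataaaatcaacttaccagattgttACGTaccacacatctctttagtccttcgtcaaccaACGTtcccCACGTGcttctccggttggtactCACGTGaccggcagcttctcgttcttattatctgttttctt
RAD52-2: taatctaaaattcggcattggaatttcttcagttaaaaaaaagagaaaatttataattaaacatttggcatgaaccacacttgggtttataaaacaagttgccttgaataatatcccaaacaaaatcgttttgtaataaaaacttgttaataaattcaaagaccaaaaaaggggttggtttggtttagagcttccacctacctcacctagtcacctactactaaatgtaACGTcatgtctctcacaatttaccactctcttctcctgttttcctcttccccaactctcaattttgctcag
CHS, F3H and MYB12 hold 1 G-box each, DFR holds 2, and RAD52-2 holds none, only 1 ACGT. The G-box was searched on both strands, and it was present in 10 of the 35 flavonoid-list members called lower (28.6%), beside 7.68% of all 27443 protein-coding genes and 8.89% of those tested. Across all calls its share was near that background, at 9.71% of promoters of lower genes and 9.22% of promoters of higher genes. The hexamer CACGTC was in 5 of the 15 most strongly lower genes and in 2 of the 15 most strongly higher ones, and in 6.98% of all genes. ACGT, which both hexamers contain, was in 13 and 8 of these 15, respectively, and in 49.9% of all genes. The G-box was in 2 and 0 of them. Across all calls CACGTC was in 8.56% of promoters of lower genes and 7.86% of higher genes, beside 7.48% of those tested. ACGT was in 51.9% and 52.3%, beside 50.5%. Of the flavonoid-list members called lower, 11.4% held CACGTC and 54.3% held ACGT. Promoters of higher genes such as IAA19, BZIP34 and BZIP61 hold a G-box too.

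Genes for sinapate esters, the other UV-screening phenolics of the rosette, were lower as well. Of 7 genes for sinapate and lignin precursors, 5 fell and none rose (median log2 difference -0.71). UGT84A1, which glucosylates hydroxycinnamates, was at 374 and 352 CPM in Ler and at 45.4 and 36.2 CPM in uvr8-2, 8.88-fold lower (log2 difference -3.15 ± 0.60 SE, adjusted p 0.00321). UGT84A2, the main sinapate glucosyltransferase, was at 1714 and 1835 CPM in Ler and at 710 and 644 CPM in uvr8-2 (log2 difference -1.39 ± 0.24 SE). FAH1, which hydroxylates ferulate precursors, was at 498 and 495 CPM in Ler and at 247 and 224 CPM in uvr8-2. All 3 genes had higher levels in both Ler libraries than in either mutant library, and none of the 3 was called in cry1cry2. SNG1, which makes sinapoylmalate, and HCT of the lignin branch were not called (log2 difference -0.53 and -0.48).

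Photolyase-family genes fell, and most other DNA repair genes did not pass the test. Photolyases reverse UV-induced pyrimidine dimers with the energy of blue light. Of 17 repair and damage-response genes tested, 5 fell and none rose (median log2 difference -0.16), and the same count was found without each of the 4 libraries. UVR3, the photolyase for pyrimidine-pyrimidone photoproducts, was at 15.6 and 27.6 CPM in Ler and at 2.15 and 3.34 CPM in uvr8-2, 7.87-fold lower (log2 difference -2.98 ± 0.36 SE, adjusted p 1.96e-05). PHR1, the photolyase for cyclobutane dimers, was at 24.8 and 25.6 CPM in Ler and at 12.9 and 10.8 CPM in uvr8-2 (log2 difference -1.08 ± 0.21 SE, adjusted p 0.00174). UVR3 thus had the larger estimated fall of the 2 photolyase genes, and the difference between them was not tested. CRY3, a photolyase-family protein of organelles that acts on single-stranded DNA, was at 121 and 140 CPM in Ler and at 54.2 and 51.3 CPM in uvr8-2. RAD52-2, a plant homolog of the recombination protein RAD52, was at 105 and 126 CPM in Ler and at 35.3 and 41.5 CPM in uvr8-2, 3.01-fold lower (log2 difference -1.59 ± 0.11 SE, adjusted p 7.95e-08). Its close relative RAD52-1 was not called. DDB2, which recognises UV damage for excision repair, fell to 34.5 and 34.9 CPM from 66 and 59.6 CPM. The excision repair genes UVH1, ERCC1, UVH3 and UVH6 and the damage regulator SOG1 were not called.

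Photoprotection and antioxidant genes fell in part. Of 16 tested, 8 fell and none rose (median log2 difference -0.45). ELIP1 and ELIP2, early light-induced proteins that bind pigments under high light, were at 5095 and 5898 CPM and at 2625 and 2907 CPM in Ler, and at 2515 and 1914 CPM and 900 and 745 CPM in uvr8-2. Both calls (adjusted p 0.0351 and 0.048) were lost without any single one of the 4 libraries, with adjusted p up to 0.17 and 0.22, and reads may be shared between these near copies. GPX7, a glutathione peroxidase of the chloroplast, was at 246 and 270 CPM in Ler and at 104 and 112 CPM in uvr8-2 (log2 difference -1.26 ± 0.22 SE). CSD1 and CSD2, the copper/zinc superoxide dismutases of the cytosol and the chloroplast, and CCS, the chaperone that loads them with copper, also fell. CSD2 was at 415 and 396 CPM in Ler and at 201 and 180 CPM in uvr8-2 (log2 difference -1.09 ± 0.19 SE, adjusted p 0.000951). These 3 were also called lower in uvr8-2 away from UVA+B. Over UVA350, UV0 and blue0, where the mean genotype difference called 711 genes (3.56%), the log2 difference was -0.55 ± 0.10 SE for CSD1, -1.0 ± 0.11 SE for CSD2 and -0.76 ± 0.12 SE for CCS, with adjusted p of 0.0028, 3.36e-05 and 0.0024. In cry1cry2 under UVA+B, CSD2 was at 180 and 150 CPM (log2 difference from Ler -1.30 ± 0.19 SE). OHP1 and OHP2, one-helix proteins of the chloroplast, fell by less, each with a log2 difference of -0.48. Both calls were lost without Ler replicate 2 or uvr8-2 replicate 1, and that of OHP1 also without Ler replicate 1. The number of members called lower was 5 without Ler replicate 1 and 4 without Ler replicate 2 or uvr8-2 replicate 1.

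Among the 15 genes with the largest falls, AT5G24130, annotated as a polypyrimidine tract-binding-like protein, held 223 counts over the 2 Ler libraries and 3 over the 2 uvr8-2 libraries. The ratio of the scaled levels was 78.6, with an exact 95% interval of 26.6 to 384 that covers counting error only. AT1G52990, a thioredoxin-family gene, was at 10.2 and 13.8 CPM in Ler and at 0.317 and 0.0642 CPM in uvr8-2 (log2 difference -5.92 ± 0.55 SE). AT1G64340, annotated as a serine/threonine kinase, was at 23.3 and 28.7 CPM in Ler and at 1.2 and 1.35 CPM in uvr8-2 (log2 difference -4.34 ± 0.30 SE, adjusted p 1.9e-07). In these genes the mutant libraries held a small remainder of the wild-type level. AT5G62210, annotated as an embryo-specific ATS3 protein, combined a high level with a large fall, from 450 and 535 CPM to 53.4 and 65.9 CPM (log2 difference -3.05 ± 0.33 SE). AT2G23910, a Rossmann-fold dehydrogenase gene, fell from 596 and 861 CPM to 71.8 and 140 CPM, a call lost without Ler replicate 2 or uvr8-2 replicate 1. UGT84A1, UVR3, AT2G22590 and MYB12, described above, are in the same group of 15, as are the glycosyltransferase gene AT4G27570, the uncharacterized AT3G24750, the hydrolase gene AT2G22960, AT1G30190, the thioredoxin-superfamily gene AT4G15660 and the berberine-family gene AT4G20820. These 6 had log2 differences from -4.83 to -2.70. Reads of AT4G27570 and AT4G15660 may be shared with close copies.

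**Figure D4:**
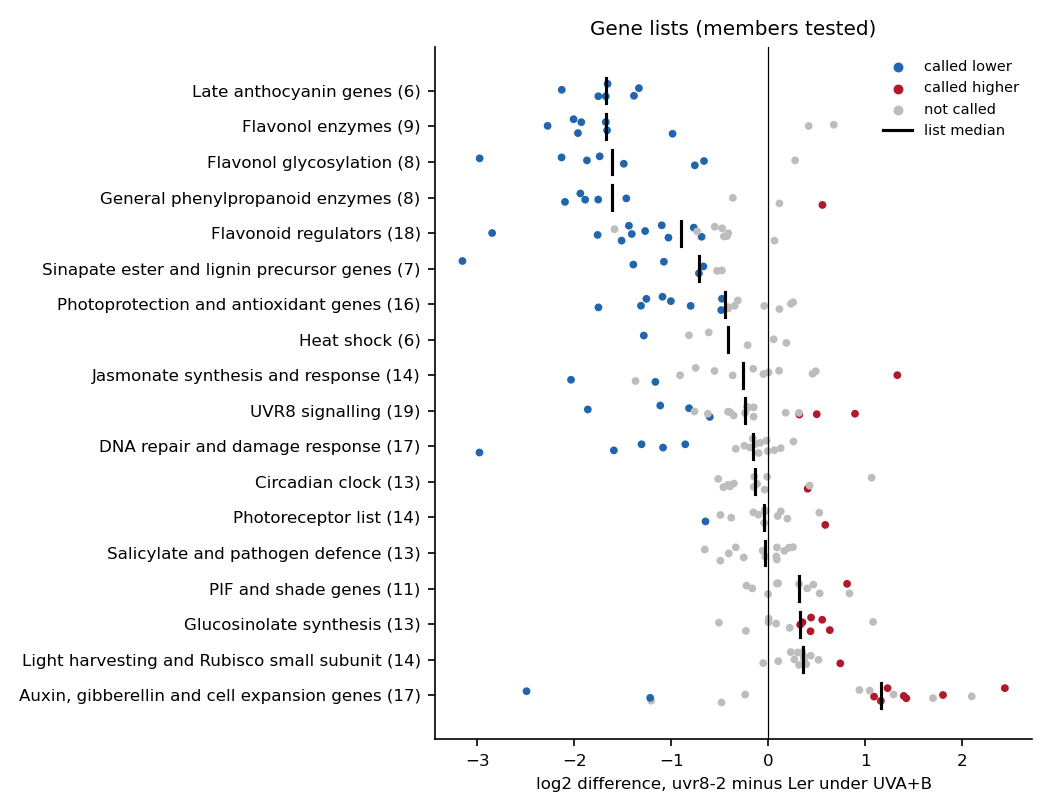
Log2 difference between uvr8-2 and Ler under UVA+B for each tested member of 18 gene lists, with the list median as a bar and the number tested in brackets. Blue points were called lower, red points higher and grey points neither. Medians run from -1.67 in the late anthocyanin and flavonol enzyme lists to 1.16 in the list of auxin, gibberellin and cell expansion genes.

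Genes of auxin response, gibberellin metabolism and cell expansion had the highest median of the pathway lists, 1.16. Of 17 tested, 7 rose and 2 fell. IAA29, an auxin-inducible repressor of auxin response, was at 2.43 and 1.09 CPM in Ler and at 8.8 and 10 CPM in uvr8-2, 5.42-fold higher (log2 difference 2.44 ± 0.52 SE, adjusted p 0.00523). IAA19, of the same family, was at 1.71 and 1.66 CPM in Ler and at 6.96 and 4.82 CPM in uvr8-2 (log2 difference 1.80 ± 0.43 SE). IAA1 (log2 difference 1.23 ± 0.28 SE), the expansin gene EXPA8 (1.42 ± 0.44 SE) and the growth regulator PRE1 (1.09 ± 0.30 SE) rose as well. These genes were at low levels, and the calls of all 5 were lost without Ler replicate 2, with adjusted p of 0.059 to 0.21. BZIP34, a bZIP factor, rose from 7.21 and 4.54 CPM to 18.6 and 12.1 CPM (log2 difference 1.40 ± 0.22 SE, adjusted p 0.000336), and its call held without each library, whereas that of the related BZIP61 (1.16 ± 0.37 SE) was lost without any one of them. Over the list, 7 higher genes became 1 without Ler replicate 2 and 3 without uvr8-2 replicate 1.

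The 2 genes that fell in that list act in gibberellin metabolism. GA2OX8, which inactivates gibberellin precursors, was at 40.4 and 51 CPM in Ler and at 7.54 and 8.73 CPM in uvr8-2, 5.62-fold lower (log2 difference -2.49 ± 0.23 SE, adjusted p 9.44e-07), and at 48.3 CPM in both cry1cry2 libraries. GA3OX1, which makes active gibberellin, was at 10.3 and 14.4 CPM in Ler and at 3.99 and 6.68 CPM in uvr8-2, a call lost without Ler replicate 2 or uvr8-2 replicate 1. The GA2OX8 call was kept without each of the 4 libraries.

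The 15 genes with the largest rises were led by NUDT24, a nudix hydrolase gene, and its libraries disagreed. It had 1.36 and 0.96 CPM in Ler, and 32.4 and 3.4 CPM in uvr8-2 (log2 difference 3.95 ± 1.08 SE, adjusted p 0.0233). Without uvr8-2 replicate 1 the difference was 1.56 and the call was lost, as it was without either Ler library. AT5G02760, a protein phosphatase 2C gene, had closer replicates, at 1.57 and 1.09 CPM in Ler and 9.18 and 7.38 CPM in uvr8-2 (log2 difference 2.64 ± 0.40 SE, adjusted p 0.000237). Its call, like those of CYP722A1 (2.13 ± 0.32 SE), ARL, a regulator of cell expansion (2.07 ± 0.39 SE), and AT1G04570, a transporter-family gene (2.22 ± 0.40 SE), held without each of the 4 libraries. Other genes of the 15, such as ASPGB1, an asparaginase gene, at 11.3 and 2.12 CPM in uvr8-2, and AT3G15650, at 31.6 and 9.18 CPM, were also far higher in uvr8-2 replicate 1, and both lost their call without it. Among the 140 called genes at 5 CPM or more that rose at least 2-fold, 28 were more than 2 times as high in uvr8-2 replicate 1 as in replicate 2, and 0 the other way round. Among the 206 such genes that fell, 3 were higher by that margin in uvr8-2 replicate 1 and 18 in replicate 2. Among genes past that margin, uvr8-2 replicate 1 was thus mostly the library farther from Ler. Most of the genes counted did not pass it, and in RUP1, CHS, F3H and RHM1 replicate 2 lay farther from Ler.

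Among genes of photosynthetic carbon fixation, RCA, Rubisco activase, was at 5157 and 4686 CPM in Ler and at 8310 and 8319 CPM in uvr8-2 (log2 difference 0.76 ± 0.12 SE, adjusted p 0.000246). Of the 6 leaf mesophyll markers that the libraries should hold, 3 rose (RCA, GAPA and, only with all 4 libraries, CA1) and none fell, and the summed level was 32400 to 33600 CPM in Ler and 41100 to 42000 CPM in uvr8-2. Of 14 light-harvesting and Rubisco small-subunit genes, RBCS2B alone rose (log2 difference 0.74 ± 0.20 SE, lost without 3 of the 4 libraries), while the list median was 0.36. Over the other alternative fits the number of higher members ranged from 0 to 9. Counts of the RBCS and LHCB1 genes are uncertain because reads are shared among near-identical copies. Markers of other organs stayed low. Root markers summed to 16.6 to 23.2 CPM, with 6 of 7 under 1 CPM in all 4 libraries and RHD6 at 0, and guard cell and phloem markers had no member called. Flower markers summed to 1.41 and 2.28 CPM in Ler and to 3.66 and 5.7 CPM in uvr8-2. Both members tested, AG and SEP3, rose at these low levels, with calls lost without Ler replicate 2 or uvr8-2 replicate 1. The AG call was also lost without Ler replicate 1. Their part in other differences was not tested.

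Of the glucosinolate genes, members of the aliphatic branch rose by small amounts. Glucosinolates are sulfur-containing defence compounds of the cabbage family. Of 13 genes tested, 6 rose and none fell (median log2 difference 0.33). MYB28, the main activator of the aliphatic branch, was at 89 and 88 CPM in Ler and at 152 and 123 CPM in uvr8-2 (log2 difference 0.63 ± 0.12 SE, adjusted p 0.00169), but not called without uvr8-2 replicate 1 (adjusted p 0.057). MAM1, CYP79F1, CYP83A1, SOT18 and BCAT4, enzymes of that branch, rose by 0.33 to 0.56 on the log2 scale. All 5 of these calls were lost without Ler replicate 2, and the count of 6 became 1 without it, 2 without uvr8-2 replicate 1 and 3 without uvr8-2 replicate 2. The tryptophan-derived branch genes CYP79B2, CYP79B3 and CYP83B1 were not called.

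Calls in the stress and hormone lists are given beside the shares over all genes tested, 8.4% lower and 6.79% higher. With so few members, a count near those shares says little about a list. None of 13 salicylate and pathogen defence genes was called (median log2 difference -0.03). Of 14 jasmonate genes, VSP1 and JAZ10 fell and CHAT rose. VSP1, a vegetative storage protein with a near copy in VSP2, was at 2042 and 1270 CPM in Ler and at 162 and 648 CPM in uvr8-2 (log2 difference -2.03 ± 0.50 SE, adjusted p 0.0126). The mutant libraries were far apart, and the calls of VSP1 and JAZ10 were lost without Ler replicate 1 or uvr8-2 replicate 1. That of CHAT (log2 difference 1.33 ± 0.32 SE) was lost without Ler replicate 2 or uvr8-2 replicate 1. Of 13 clock genes PRR7 rose (log2 difference 0.41 ± 0.09 SE), of 11 PIF and shade genes PAR2 rose (0.81 ± 0.27 SE), and of 6 heat-shock genes HSP17.6II fell (-1.28 ± 0.38 SE). None of these 3 calls held without Ler replicate 2. Among 14 photoreceptor genes PHOT1, the blue-light receptor of phototropism, rose from 190 and 171 CPM to 266 and 275 CPM (log2 difference 0.59 ± 0.12 SE, adjusted p 0.057 without Ler replicate 2), and AT3G44450 fell (-0.65 ± 0.16 SE). CRY1 and CRY2 were not called (log2 difference 0.20 ± 0.11 SE and 0.10 ± 0.18 SE).

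The genotype difference was then followed through the other filters, which are separate libraries. Under UVA it called 49 genes (0.245%), under UVA350 2 (0.01%), under UV0 27 (0.135%) and under blue0 0, with 1130 genes at an unadjusted p under 0.05 in edgeR. Genes called lower under UVA+B mostly kept that sign at a smaller size. Genes of both directions were chosen by their difference under UVA+B, so a smaller size in other libraries is in part given by that choice. Of the 1678, 94.8% had a difference below 0 under UVA (median -0.23), 77.7% under UVA350 (median -0.11), 84.5% under UV0 (median -0.26) and 75.5% under blue0 (median -0.11). The shares over all genes tested were 50.3%, 49.9%, 49.1% and 50.7%, and the size did not fall steadily from filter to filter. Of the 1356 higher genes, 93.4% were above 0 under UVA (median 0.23), 77% under UVA350 (median 0.11), 88.1% under UV0 (median 0.20) and 70.7% under blue0 (median 0.08). Of the genes called lower under UVA+B, 238 were also called lower over UVA350, UV0 and blue0, which is 14.2% of the first list and 56.9% of the second. For higher genes the number was 145, or 10.7% and 49.5%. Over all genes tested, 2.09% were called lower and 1.47% higher over these filters, and 8.4% and 6.79% under UVA+B.

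For flavonol, anthocyanin and photolyase genes the genotype difference was smaller under the longer filters. CHS had a mean of 1700 CPM in Ler and 766.5 CPM in uvr8-2 under UVA (log2 difference -1.15 ± 0.28 SE, adjusted p 0.13), and 689 against 843 CPM under UVA350 (0.29 ± 0.28 SE). Over UVA350, UV0 and blue0 its difference was 0.16 ± 0.16 SE. The list medians over these 3 filters were 0.16 for flavonol enzymes, -0.05 for general phenylpropanoid genes and -0.30 for late anthocyanin genes. The test of the change itself, UVA+B against the mean of UVA350, UV0 and blue0, called 516 genes (2.58%), 310 of them with a more negative and 206 with a more positive difference under UVA+B. It called 7 of 9 flavonol enzymes, all 6 late anthocyanin genes, 6 of 8 glycosylation genes, 4 of 8 general phenylpropanoid genes, 5 of 17 repair genes and 2 of 18 flavonoid regulators, each more negative under UVA+B. Of the regulators, LBD37, LBD38 and LBD39, nitrogen-responsive repressors of anthocyanin genes, were called lower over the 3 longer filters (log2 difference -0.74 ± 0.15 SE, -0.54 ± 0.13 SE and -1.10 ± 0.16 SE). Only LBD39 among them was also called under UVA+B (adjusted p 0.00562 in edgeR). That call was lost when the 4 Ler and uvr8-2 libraries under UVA+B were fitted alone. It was also lost without Ler replicate 2 (log2 difference -1.18) or uvr8-2 replicate 1 (-0.71). The count of 516 was 136 if Ler replicate 2 under UVA+B was left out, 191 if uvr8-2 replicate 1 was, and 1049 if uvr8-2 replicate 2 was.

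**Figure D5:**
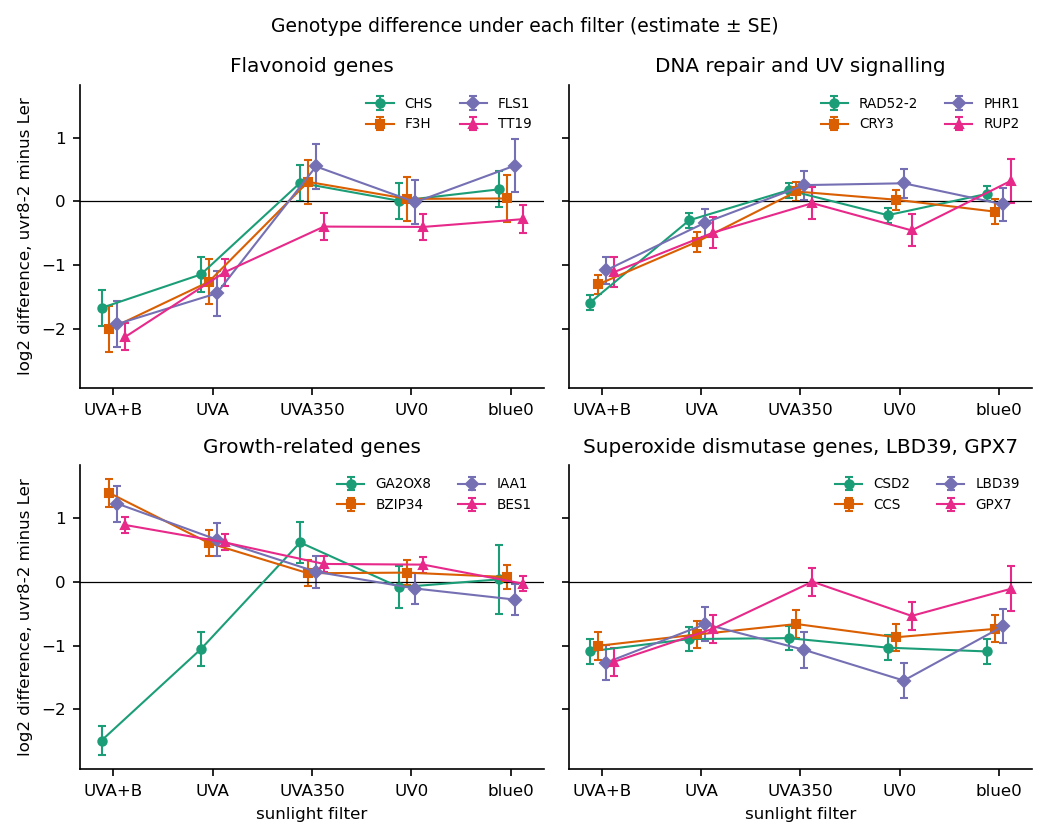
Log2 difference between uvr8-2 and Ler, with its SE, under each of the 5 filters (horizontal axis) for 16 named genes in 4 panels. The flavonoid, repair and growth-related genes move to near 0 at UVA350 and beyond, with TT19 staying at -0.28 to -0.40, while CSD2 and CCS stay between -0.66 and -1.09 under all 5 filters.

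Of the 10 genes with the smallest p for such a change, RAD52-2 led. Others were SDH2-1, an iron-sulfur subunit of succinate dehydrogenase, SDHAF2, an assembly factor of that enzyme, and COX15, which makes the heme of cytochrome c oxidase. SDH2-1 was at 179 and 193 CPM in Ler and at 81.2 and 87.9 CPM in uvr8-2 under UVA+B (log2 difference -1.14 ± 0.10 SE), and differed by 0.02 ± 0.06 SE over the 3 longer filters. COX15 was at 112 and 129 CPM in Ler and at 50 and 47.8 CPM in uvr8-2, and SDHAF2 at 125 and 134 CPM and at 63.1 and 61 CPM. In all 3 genes both mutant libraries lay well below both Ler libraries. AAE18, an acyl-activating enzyme, AT2G36290, AT3G10350, AT1G06550, AT4G30470 and AT1G20225 complete the 10, and all 10 were lower in uvr8-2 under UVA+B. AT4G30470, a Rossmann-fold dehydrogenase gene, had the largest fall among them, from 164 and 186 CPM to 35.5 and 30.3 CPM. SDH2-1 and COX15 overlap a neighbouring gene on the same strand, and their counts are uncertain to that extent.

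Against UVA, the nearest filter, RAD52-2 was the 1 gene called (0.00501% of genes tested), with 1433 genes at an unadjusted p under 0.05 in edgeR. The count was 9 without Ler UVA+B replicate 1, 2 without uvr8-2 replicate 1 of UVA+B or replicate 2 of UVA, 18 without uvr8-2 UVA+B replicate 2, and 26 with DESeq2. Its log2 difference was -1.59 ± 0.11 SE under UVA+B and -0.30 ± 0.12 SE under UVA, where Ler had a mean of 38.5 CPM and uvr8-2 31.4 CPM. Under UVA+B the means were 116 CPM in Ler and 38.4 CPM in uvr8-2. The list medians under UVA were -1.0 for flavonol enzymes, -0.95 for late anthocyanin genes and 0.60 for the auxin, gibberellin and expansion genes, each between the values under UVA+B and over the longer filters. Other lists did not keep that order, such as jasmonate genes with -0.26 under UVA+B, -0.38 under UVA and -0.05 over the longer filters.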

How the data were processed

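RNA of whole rosettes was sequenced with a stranded mRNA kit in 30 libraries, 2 for each of 15 groups. The submitters' processing notes name kallisto, FastQC and Trimmomatic 0.33. The deposited table gives estimated counts per locus, from the authors, for 34212 loci, with the transcriptome, its build and the use of strand in counting not given in these sources. Library totals were 12109222 to 22865826.

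Here the estimates were made whole by rounding and scaled with TMM factors (0.927 to 1.112), and filterByExpr kept 19980 loci. edgeR 4.0.16 (robust quasi-likelihood, R 4.3.3) was fitted to all 30 libraries with 1 coefficient per group, leaving 15 residual degrees of freedom, with Benjamini-Hochberg adjustment over all loci tested. The contrasts were uvr8-2 minus Ler under UVA+B, under each other filter and over UVA350, UV0 and blue0, the change between these, and cry1cry2 minus Ler. The contrast uvr8-2 minus cry1cry2 was added after the data were seen. Alternatives were RLE and upper-quartile scaling, no filter, DESeq2 1.42.0, a replicate block, no organelle loci, fewer libraries and leaving out each library. A left-out library leaves an arm with 1 sample, which is then assumed to vary like the other groups. Libraries of a group are pools of separate field blocks.

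Named genes were the 15 largest called differences in each direction (at least 5 CPM in the higher group, genotypes not overlapping), called members of 23 lists, the 10 genes with the smallest p in each change between filters, and a fixed set of pathway genes. Members and lists were chosen with earlier results of these data known. Names, overlaps and promoters came from the RefSeq annotation of TAIR10.1. Members of gene families with near-identical copies are uncertain. The counting interval covers counting error only.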

Additional observations from a re-analysis of the deposited data

Results flagged for a closer look

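The difference between uvr8-2 and Ler changed with the filter in 1 gene when UVA+B was set against UVA, and in 516 genes when it was set against the mean of UVA350, UV0 and blue0. Both are tests of the change itself, at an adjusted p under 0.05 in edgeR.

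RAD52-2 was the gene of the first test, with a change of -1.29 in the log2 difference, and it was called in 14 of 14 alternative fits. In the second test its change was -1.62. The photolyase gene UVR3 changed by -2.94 and PHR1 by -1.25. Of the pigment and signalling genes, CHS changed by -1.84, FLS1 by -2.29, RUP1 by -1.95 and ELIP1 by -2.03.

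The other genes with the smallest p in the second test were AT2G36290 with -1.51, SDH2-1 with -1.16, AAE18 with -1.86, AT3G10350 with -1.25 and COX15 with -1.34. AT1G06550 changed by -1.98, AT4G30470 by -2.35, SDHAF2 by -0.99 and AT1G20225 by -1.02. These 9 genes, RAD52-2, UVR3 and CHS were called in 22 of 22 alternative fits. FLS1 was called in 21, not without uvr8-2 UVA+B replicate 1 (adjusted p 0.0593), and PHR1 in 21, not without Ler UVA+B replicate 2 (adjusted p 0.0531). RUP1 was called in 7 and ELIP1 in 13 of the 22.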

How the results depend on the processing

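Signs were compared for named genes only. None of these that was called in the main fit or in an alternative changed its sign between them. Of 2940 recomputed values, gene differences and counts together, 2585 were labelled as kept, 318 as weaker and 37 as stronger. A gene was kept if it stayed on its side of the threshold, whatever its sign when not called. A count was kept if it stayed equal or within a set ratio. The 3034 calls under UVA+B were 113 in the 4 libraries alone and 662 (without uvr8-2 replicate 1) to 3911 (without uvr8-2 replicate 2) when 1 library was left out. The 90 list members called were 28 in the 4 libraries alone and 56 to 84 with 1 library left out. The single call for UVA+B against UVA became 3 without the filter on low counts, 26 with DESeq2 and 1 to 18 with 1 library left out. The 516 calls against the longer filters were 136 to 1049 with 1 library left out, and the 711 calls over those filters were 228 to 1147. Of the 124 named genes called, 75 kept the call without each of the 4 libraries and 44 under every alternative.

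The replicate number of the titles was also fitted as a replicate block. Calls rose to 4672 under UVA+B, 18 against UVA, 1306 against the longer filters and 1821 over them. Deviations of same-numbered libraries of Ler and uvr8-2 under UVA+B had a correlation of 0.299, and over 105 pairs of groups it was 0.026 to 0.435. The labels do not say that a number marks the same blocks. The cause of these changes was not tested. With 2 libraries per group, the precision rests on the spread shared over all groups.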

Other observations

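Some genes outside the lists were chosen after their values were seen. The precursor of MIR858a, a microRNA known to target flavonoid MYB genes, was at 1.36 and 2.50 CPM in Ler. In uvr8-2 it was at 0.19 and 0.193 CPM (log2 difference -3.29 ± 0.70 SE, adjusted p 0.0053 in edgeR). These uvr8-2 levels lie near those of 3 counts, 0.182 and 0.183 CPM before TMM scaling, so the size of the difference is uncertain. MIPS1, which opens inositol synthesis, was at 110 and 77.3 CPM in Ler and at 568 and 193 CPM in uvr8-2 (log2 difference 2.02 ± 0.39 SE, adjusted p 0.00281), with the mutant libraries far apart.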
